A study of Mus musculus with 60 samples.

Results

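Messenger RNA of Ter119-high erythroblasts from mouse fetal liver was compared between Gata1s and wild type embryos at E12.5 and at E14.5, and the question was how far the genotype effect itself differed between these days. The quantity described is the genotype by day interaction, that is, the Gata1s minus wild type difference at E14.5 minus the same difference at E12.5. The cells are the R3 sort, with high CD71 (the transferrin receptor) and high Ter119 (an erythroid surface marker), from C57BL/6 embryos. Members were all libraries whose names carry this sort, 9 of the 20 RNA libraries and of the 60 samples of the series. They comprise 3 wild type and 2 Gata1s libraries at E12.5, and 2 wild type and 2 Gata1s libraries at E14.5. No treatment was applied to any group. The other 11 RNA libraries come from the R1/2 sort, with high CD71 and no to medium Ter119, of the same genotypes and days. Whether replicates come from separate embryos or litters is not given in the labels used here, so p-values measure the spread between these libraries, which may be technical.

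GATA1 is the zinc finger transcription factor that drives red cell and megakaryocyte development, and Gata1s is the short form of it that lacks the N-terminal part. In the fetal liver, definitive erythroblasts lose CD71 and gain Ter119 as they mature, fill with haemoglobin, build the red cell membrane skeleton, leave the cell cycle, clear their mitochondria and finally lose the nucleus. Primitive red cells, which arise in the yolk sac, express embryonic globins and circulate at the same time. An effect of a mutation that is present at 1 day and gone at the next can be distinguished from an effect that stays, grows or first appears, and genes were sorted into such classes here.

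Values are the authors' normalised counts, and effects are differences of log2(normalised count + 5), each with its standard error after ±, for the 8561 genes that averaged 50 or more across the 9 libraries. The 9 libraries held 6931315 to 22588764 reads, and 1 read was worth 0.802 to 4.72 normalised counts. Erythroblast markers were high throughout, with Slc4a1, the band 3 anion exchanger, at 158400 to 881400 and Klf1, an erythroid transcription factor, at 5824 to 19610. Library names start with JC or MS, whose meaning is not given; all Gata1s R3 libraries carry MS, as do 1 of the 3 wild type libraries at E12.5 and 1 of the 2 at E14.5. A term for this prefix was fitted and was itself called for 1701 genes (19.9%). Wild type holds both prefixes at both days, so a prefix difference enters the interaction by less than it enters the effect of each day.

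Markers of other cells and sex-linked genes differed between groups, and their part in the results below was not tested. Summed over the 18 hepatoblast genes, the level was 396.6 to 4246 in wild type E14.5 and 105.1 to 213.9 in Gata1s E14.5 libraries, against 917.5 to 2253 and 1206 to 2296 at E12.5. Alb, the liver's albumin, was at 1413 in wild type E14.5 replicate 1 and at 118 in replicate 2. Summed over the 24 neutrophil and monocyte genes, the level was 1884 to 4091 in wild type E14.5 and 478 to 1552 in all other groups. The 6 embryonic globin and primitive red cell genes summed to 181100 to 660300 in wild type E12.5 and to 25090 to 95040 in the other groups. The 14 mast cell, basophil and eosinophil genes summed to 355.7 to 574 in wild type and 86.42 to 323.3 in Gata1s at E12.5. At E14.5 they summed to 854.6 to 913.1 and 107.8 to 191.8. The 11 lymphoid genes summed to 115.8 to 127.5 in wild type E14.5 and to 22.37 to 40.41 in the other groups. Single markers of these lists could be absent, with Cd3e at 0 in all 9 libraries and Fcer1a at 0 in 8 of them. Fewer cells of a type and less RNA per cell cannot be told apart in such bulk samples. Xist, the X inactivation transcript, was at 3397, 6598 and 6352 in wild type E12.5, at 9113 and 10840 in Gata1s E12.5, at 8691 and 10480 in wild type E14.5 and at 4735 and 4246 in Gata1s E14.5. The 4 Y-linked genes summed to 1981, 2006 and 2775, to 2269 and 2210, to 1112 and 2167, and to 3544 and 3521 in the same order, so every library held both kinds of transcript. At E14.5 Gata1s had less Xist and more of the Y-linked transcripts than wild type, while at E12.5 it had more Xist and the Y-linked sums overlapped. Gata1 itself is X-linked.

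**Figure D1:**
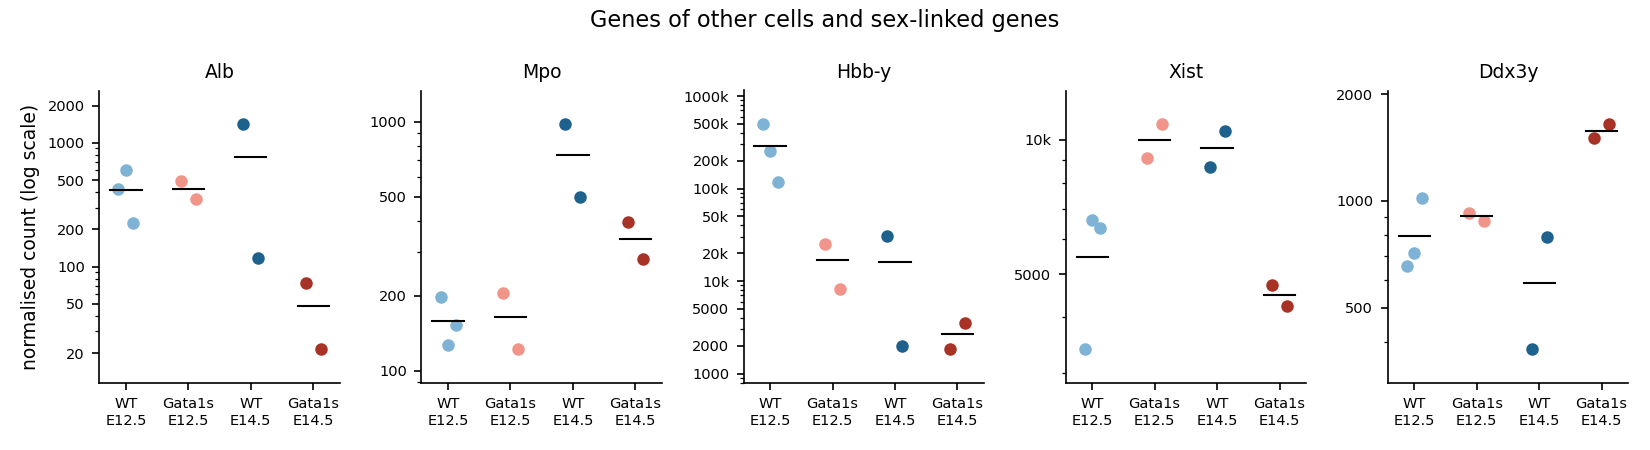
Normalised counts (log scale) of Alb, Mpo (myeloperoxidase, a granulocyte gene), the embryonic globin Hbb-y, Xist and the Y-linked Ddx3y in each R3 library; points are libraries and bars are group means. The Gata1s E14.5 libraries hold the least Alb, and the wild type E12.5 libraries the most Hbb-y.

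The genotype effect differed between the days for a large share of genes. The interaction was called for 2445 of 8561 genes (28.6%) by limma at an adjusted p under 0.05, of which 1521 (17.8%) were higher and 924 (10.8%) lower. A higher interaction means that Gata1s gained on wild type between the days. Higher calls were 62.2% of the total on the deposited scaling and 44.4% after quantile normalisation, so the split between directions depends on scaling. edgeR on the recovered reads called 2271 (26.5%), and 2087 genes (24.4%) were called by both in the same direction. The effect of the genotype itself was called for 3575 genes (41.8%) at E12.5, 1302 higher (15.2%) and 2273 lower (26.6%), and for 3607 genes (42.1%) at E14.5, 1592 higher (18.6%) and 2015 lower (23.5%). The same direction was called at both days for 1689 genes (19.7%). These made up 52.8% of the higher and 44.1% of the lower calls of E12.5, and 43.2% and 49.7% of those of E14.5.

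Genes were separated into 6 patterns by which of the effects were called. Recovering genes were called at E12.5 and no longer at E14.5, with a called interaction in between (782 genes, 9.13%). Partly recovering genes kept a smaller effect of the same sign (119 genes, 1.39%). Reversing genes were called at both days in opposite directions (209 genes, 2.44%). Newly changed genes were called at E14.5 only, with a called interaction (891 genes, 10.4%). Amplified genes had a larger effect of the same sign at E14.5 (292 genes, 3.41%). Persisting genes were called at both days, without a called interaction and with its 95% interval within 1 log2 unit of 0 (1044 genes, 12.2%). A further 152 genes (1.78%) had a called interaction outside these patterns. A recovering gene is one whose E14.5 effect did not pass the test, which does not show that the genotypes were equal. Intervals of the E14.5 effect are given for some of the genes named.

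**Figure D2:**
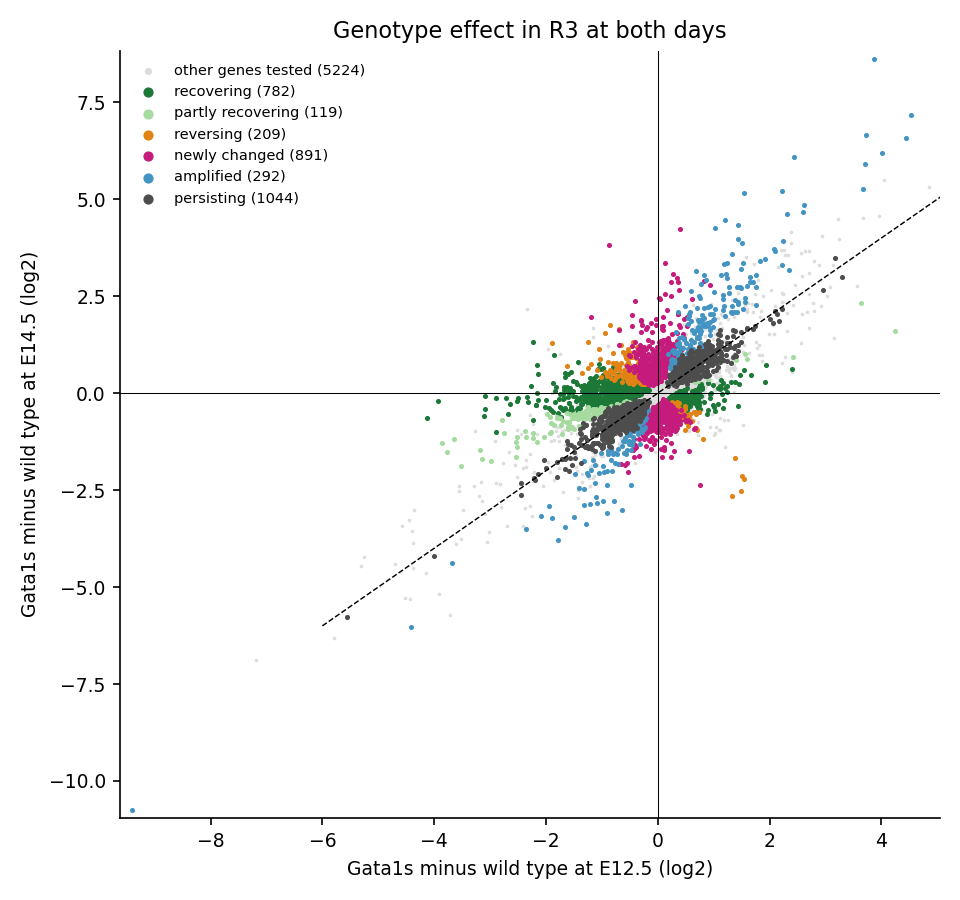
Gata1s minus wild type in R3 at E12.5 (horizontal) and at E14.5 (vertical), in log2 units, 1 point per gene tested, coloured by pattern; the dashed line marks equal effects at both days. The 782 recovering genes lie along the horizontal axis, most of them left of 0, the 891 newly changed genes along the vertical axis, and the 1044 persisting genes along the dashed line.

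Most of the recovering genes were ones that wild type erythroblasts also raise between the days. Of the 615 recovering genes with a higher interaction, 495 rose with day in wild type (9 fell) and 607 rose in Gata1s. Their median effect was -0.75 at E12.5 and 0.04 at E14.5, and their median change with day was 0.65 in wild type and 1.44 in Gata1s. Of the 167 with a lower interaction, 68 fell with day in wild type and 163 fell in Gata1s. Over all genes, the day change was called for 4107 genes (48.0%) in wild type and for 5853 (68.4%) in Gata1s. Newly changed genes moved mainly in Gata1s: among the 411 with a higher interaction, 369 rose with day in Gata1s and 131 rose in wild type, where 71 fell. In the amplified genes with a higher interaction, 88 of 175 fell with day in wild type and 6 fell in Gata1s, where most of them rose. The Gata1s day change minus the wild type day change is the interaction itself, by which these genes were selected. That Gata1s gained in the higher sets and lost in the lower sets is therefore fixed by the selection and is no separate result.

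**Figure D3:**
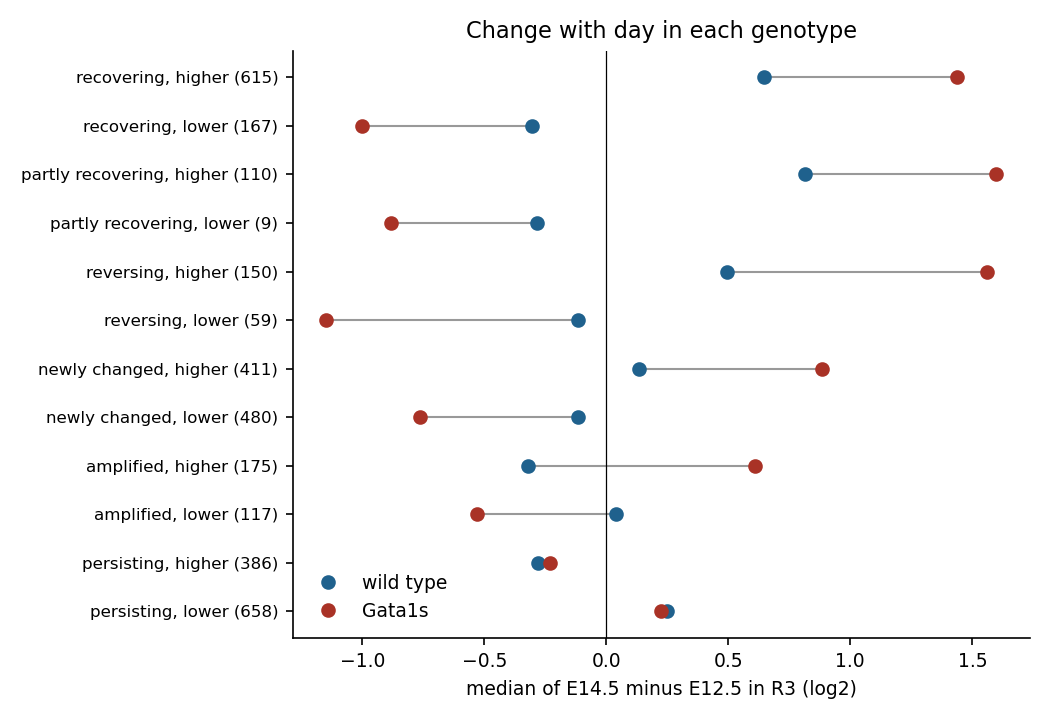
Median change from E12.5 to E14.5 (log2) over the genes of each pattern, in wild type (blue) and Gata1s (red), with the number of genes in brackets. In the recovering genes both genotypes moved the same way, with medians of 0.65 and 1.44 for those with a higher interaction. In the amplified higher genes the genotypes moved in opposite directions. The gap between the genotypes follows from selecting the genes by the interaction.

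The difference between the days was tested in the earlier sort in the same way. In R1/2, limma called 0 genes in the interaction (0% of those tested), 212 genes had an unadjusted p under 0.05, and edgeR called 0, with 274 at an unadjusted p under 0.05. In R3, 3505 genes had an unadjusted p under 0.05. The median size of the interaction was 0.33 in R3 and 0.09 in R1/2, at median standard errors of 0.18 and 0.17. The R3 minus R1/2 difference was called for 1012 genes (11.8%) by limma and 1066 by edgeR. Of the 2445 R3 calls, 999 were called in that difference too, with the same sign. That difference contains the R3 interaction by which the 2445 genes were selected, so this overlap and its sign are no separate result.

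Genes of late red cell maturation were mostly low in Gata1s at E12.5, and their median was nearer to wild type at E14.5. Of 33 late maturation and antioxidant genes, 29 were called lower and 2 higher at E12.5, against 7 lower and 6 higher at E14.5. Among the 33, 18 were recovering, 3 partly recovering and 4 reversing, and 25 had a higher and 1 a lower interaction. The median effect went from -1.29 at E12.5 to -0.23 at E14.5, where it covers effects of both signs. Over all genes tested, the medians were -0.04 and -0.06. Without wild type E14.5 replicate 1, 16 of the 33 were called higher. Bpgm, the enzyme that makes 2,3-bisphosphoglycerate in red cells, was at 11460, 16480 and 16250 in wild type E12.5, at 2105 and 1886 in Gata1s E12.5, at 47400 and 81440 in wild type E14.5 and at 54130 and 51910 in Gata1s E14.5. All Gata1s libraries lay below wild type at E12.5, and the genotypes overlapped at E14.5. Its effect was -3.09 ± 0.31 at E12.5 and -0.40 ± 0.33 at E14.5 (95% interval -1.10 to 0.30), and the interaction was 2.69 ± 0.43 (limma, adjusted p = 0.000479). Ube2o, the ubiquitin ligase that remodels the proteome of reticulocytes, read 13300, 19760 and 24940 against 4681 and 4934 at E12.5, and 51040 and 89580 against 86120 and 96350 at E14.5. Here too the groups were apart at E12.5 and overlapped at E14.5, and the interaction was 2.47 ± 0.34 (limma, adjusted p = 0.00019). Trim58, an erythroid ubiquitin ligase, and Fam46c, which acts in late erythroblasts, had interactions of 1.72 and 2.24; they were chosen after their values were seen.

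**Figure D4:**
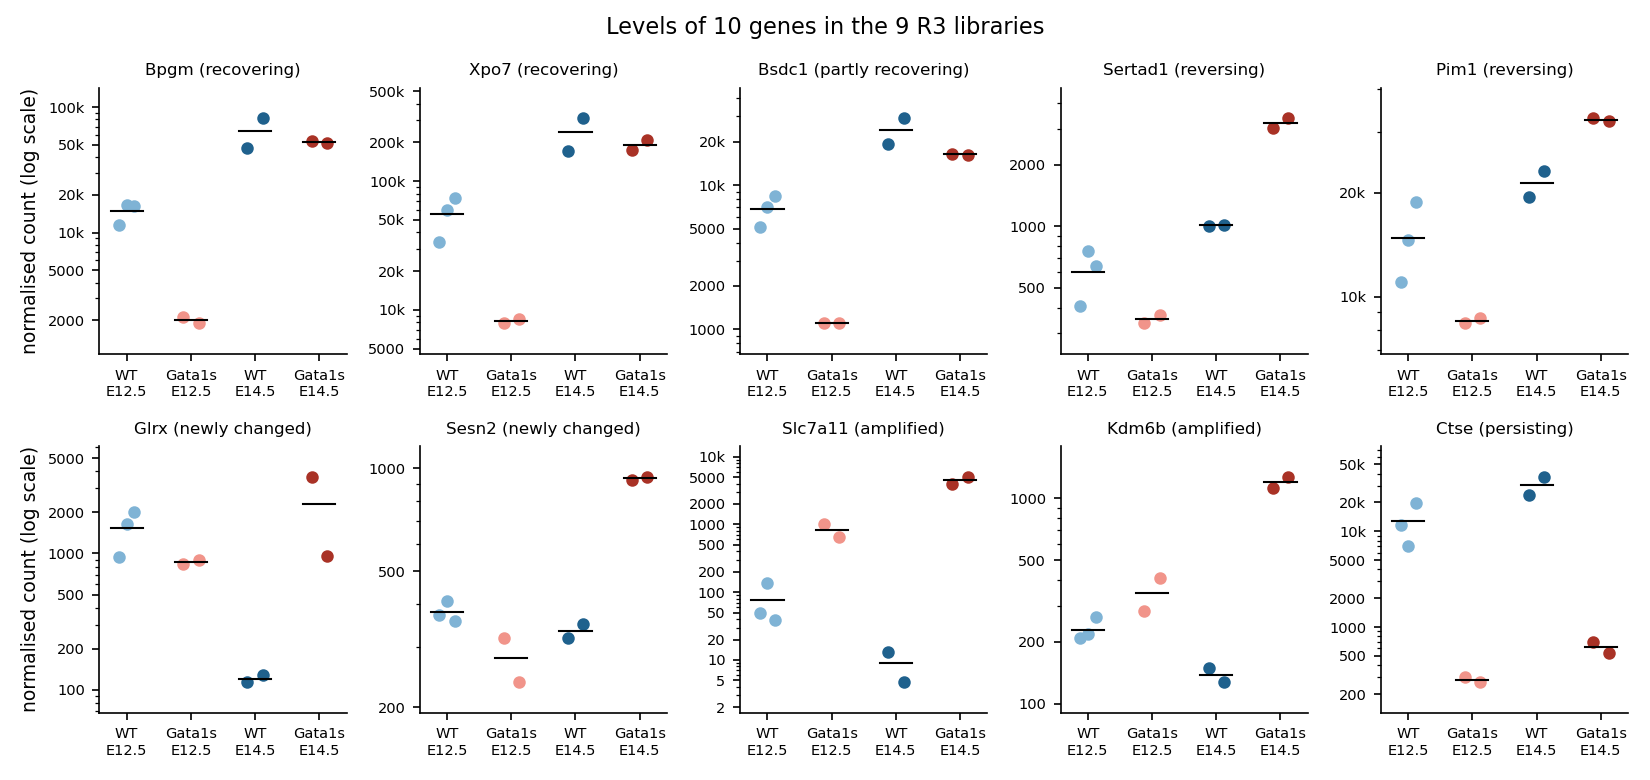
Normalised counts (log scale) of 10 genes in each R3 library, with the pattern of each gene in brackets; points are libraries and bars are group means. Bpgm and Xpo7 are apart at E12.5 and overlap at E14.5, and Ctse stays low in Gata1s at both days. Sertad1, Pim1, Glrx and Sesn2 change order, with Gata1s higher at E14.5, although the E12.5 effects of Glrx and Sesn2 were not called.

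Membrane and skeleton genes followed the same course. Of 35 such genes, 24 had a higher and 1 a lower interaction, 17 were recovering and 7 partly recovering, and the median effect was -1.12 at E12.5 and -0.27 at E14.5. The number called higher was 10 after quantile normalisation and 14 without wild type E14.5 replicate 1. Tmcc2, a transmembrane and coiled-coil protein, was at 42840, 71990 and 85040 against 11250 and 12920 at E12.5, and at 184500 and 281200 against 251500 and 291100 at E14.5. The interaction was 2.78 ± 0.37 (limma, adjusted p = 0.000129), with an E14.5 effect of -0.12 (95% interval -0.71 to 0.48). Art4, which carries the Dombrock blood group antigen, read 3513, 3855 and 5405 in wild type and 2238 and 2144 in Gata1s at E12.5, and 6969 and 8627 against 8316 and 9202 at E14.5. The genotypes were apart at E12.5 and overlapped at E14.5 for both genes, and the Art4 interaction was 1.15 ± 0.17 (limma, adjusted p = 0.000244). Slc4a1, with effects of -1.81 at E12.5 and -0.57 at E14.5, did not pass in the interaction (limma, adjusted p = 0.0526).

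Iron and heme genes recovered in part of their lists. Of 23 iron genes, 13 had a higher and 1 a lower interaction, and of 23 heme genes 9 and 1. The higher counts were 5 and 4 after quantile normalisation, and 7 and 4 without wild type E14.5 replicate 1. The iron count was 8 without Gata1s E14.5 replicate 2, and the heme count was 4 without either Gata1s E12.5 library or Gata1s E14.5 replicate 2. Slc11a2, the transporter that moves iron out of the transferrin endosome, was at 4006, 4200 and 4796 against 2323 and 2494 at E12.5, and at 5646 and 5473 against 5188 and 5380 at E14.5. Its interaction was 0.77 ± 0.11 (limma, adjusted p = 0.000272) and 0.51 after quantile normalisation. Slc25a39, a mitochondrial carrier, read 12870, 17050 and 17760 against 8084 and 8448, and then 37220 and 45500 against 51860 and 52070. Its groups were apart at both days, lower in Gata1s at E12.5 and higher at E14.5, although the fitted E14.5 effect of 0.29 (95% interval -0.06 to 0.63) was not called. Its interaction was 1.28 ± 0.21 (limma, adjusted p = 0.000565) and 0.81 after quantile normalisation.

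Erythroid transcription factors also gained on wild type. Of 22, 19 were called lower at E12.5, with a median effect of -0.88. At E14.5, 10 were called lower and 5 higher, so the median of -0.11 there covers effects of both signs. Among the 22, 6 were recovering and 6 partly recovering, and 17 had a higher and 2 a lower interaction. The higher count was 9 after quantile normalisation and 11 without wild type E14.5 replicate 1. Mafk and Mafg are small MAF proteins that pair with NF-E2 and with BACH1 at globin and heme genes. Mafk was at 3057, 3922 and 4316 against 1603 and 1660 at E12.5, and at 6222 and 8155 against 7523 and 8394 at E14.5. Mafg was at 1384, 1599 and 1935 against 728 and 853, and then at 2693 and 3461 against 3614 and 4167. The interactions were 1.36 ± 0.17 and 1.41 ± 0.18 (limma, adjusted p = 9.04e-05 and 8.67e-05). At E14.5 the genotypes overlapped for Mafk and not for Mafg, where Gata1s lay above wild type.

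Other recovering genes act in autophagy, cell cycle exit, enucleation and the matrix. Ulk1, the kinase that starts autophagy, was at 2674, 3784 and 4266 against 1597 and 1702 at E12.5, and at 7844 and 10160 against 11350 and 13410 at E14.5. Its E14.5 effect of 0.38 (95% interval 0.05 to 0.70) missed the adjusted threshold (adjusted p = 0.058), and the interaction was 1.58 ± 0.20 (limma, adjusted p = 9.64e-05). Of the 23 autophagy genes, 12 had a higher and 2 a lower interaction. Mxd1, a partner of MAX that opposes MYC, had an interaction of 1.55 ± 0.23. Xpo7, a nuclear exporter needed for nuclear condensation in erythroblasts, was at 33520, 59570 and 74040 against 7857 and 8462, and then at 172200 and 308000 against 174100 and 208600, with an interaction of 2.53 ± 0.44 (limma, adjusted p = 0.00076). Loxl2, a lysyl oxidase, was at 1230, 1855 and 2152 against 206 and 252.4, and then at 3418 and 3272 against 2578 and 4828, with an interaction of 3.00 ± 0.42. Gata1s was lower than every wild type library at E12.5 and overlapped with wild type at E14.5 for both Xpo7 and Loxl2. Hist1h2bc, a histone gene, was at 1275, 1227 and 1674 against 327.9 and 496.6 and then at 1088 and 2375 against 1877 and 2115.

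Fewer genes were high in Gata1s at E12.5 and recovered. Casc4, which encodes a membrane protein of unsettled function, was at 393.6, 432.5 and 267.3 in wild type and 637.5 and 724.3 in Gata1s at E12.5, and at 254.8 and 188.9 against 162.3 and 164.3 at E14.5. Its interaction was -1.33 ± 0.32 (limma, adjusted p = 0.00631). Ndufb5, a subunit of respiratory complex I, had an interaction of -0.79 ± 0.18 (limma, adjusted p = 0.00532). Of 74 oxidative phosphorylation genes, 17 had a higher and 3 a lower interaction. The share called in either direction was near that of all genes tested (28.6%). After quantile normalisation the counts were 2 and 8, and without wild type E14.5 replicate 1 only 1 was higher. Without wild type E12.5 replicate 3 or Gata1s E14.5 replicate 2 the higher count was 4, without Gata1s E12.5 replicate 1 it was 7, and without Gata1s E12.5 replicate 2 it was 6.

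Partly recovering genes stayed low in Gata1s at E14.5 by less than before. Bsdc1, a BSD domain protein, was at 5119, 7012 and 8341 against 1116 and 1099 at E12.5, and at 19350 and 29030 against 16530 and 16130 at E14.5. Its effect was -2.78 ± 0.19 and then -0.68 ± 0.20, and its interaction was 2.10 ± 0.27 (limma, adjusted p = 9.7e-05). Cd82, a tetraspanin, was at 4360, 5423 and 6502 against 455.7 and 518.5, and then at 11480 and 15540 against 3883 and 3642. Its effect of -3.51 ± 0.21 became -1.87 ± 0.23. Gata1s lay below wild type at both days for both genes. Myo1d, an unconventional myosin, had effects of -1.99 and -0.55 and Slc4a5, a bicarbonate cotransporter, of -3.64 and -1.19. In the other direction, Cpne7, a copine, was at 9.62, 19.4 and 20.4 in wild type and 462.6 and 481.5 in Gata1s at E12.5, and at 8.27 and 14.2 against 44.2 and 59.3 at E14.5. Its wild type E14.5 values rest on 5 and 3 reads, and its interaction of -2.63 ± 0.32 depends on the added 5.

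Reversing genes crossed from below to above wild type, or the other way. SERTAD1 and SERTAD3 are small nuclear proteins that act on E2F and CDK4 activity. Sertad1 was at 405.6, 754.6 and 641.1 in wild type and 334.9 and 370.4 in Gata1s at E12.5, and at 1007 and 1020 against 3028 and 3384 at E14.5. Sertad3 was at 833, 1119 and 1160 against 344 and 365, and then at 2223 and 2148 against 3706 and 3758. Their interactions were 2.37 ± 0.30 and 2.32 ± 0.25 (limma, adjusted p = 8.92e-05 and 4.26e-05), and the groups were apart at both days in opposite order. Pim1, a survival kinase induced by erythropoietin, was at 11060, 14620 and 18800 against 8356 and 8688, and then at 19470 and 23180 against 32920 and 32360. Its interaction was 1.45 ± 0.20, and 0.87 after quantile normalisation. Mxi1, another MAX partner, had effects of -0.74 at E12.5 and 0.44 at E14.5. Ftl1, the ferritin light chain, was at 76900, 89570 and 109800 against 55650 and 53720, and then at 183900 and 201100 against 263800 and 313100, with an interaction of 1.33 ± 0.21, and 0.71 after quantile normalisation. Near-identical ferritin light chain copies exist in the mouse genome, and how the authors' counting split reads among them is not given.

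Further reversing genes were Vwa5a, Junb and Lyl1. Vwa5a, a von Willebrand factor A domain protein, was at 812, 1028 and 888 against 387 and 477 at E12.5, and at 779 and 1171 against 1748 and 1711 at E14.5, with an interaction of 1.95 ± 0.22 (limma, adjusted p = 4.89e-05). Junb, an AP-1 factor, had effects of -0.53 and 1.14, and Lyl1, a basic helix-loop-helix partner of stem and red cell genes, of -0.62 and 0.43 (0.68 for the Lyl1 interaction after quantile normalisation, against 1.05). Among genes going down, Oxct1, which uses ketone bodies, was at 821, 641 and 575 against 853 and 1099, and then at 938 and 628 against 417 and 310, and Rfc4, a clamp loader subunit of DNA replication, was at 1962, 1800 and 1871 against 2336 and 2248, and then at 2050 and 1771 against 1350 and 1210. Their interactions were -1.66 ± 0.25 and -0.86 ± 0.12 (limma, adjusted p = 0.000324 and 0.00019). For both, Gata1s lay above all wild type libraries at E12.5 and below them at E14.5.

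All 4 hepatoblast genes that could be tested, of 18, also fell in this pattern. Alb was at 426.5, 601 and 226.5 against 489 and 351.2 at E12.5, and at 1413 and 118 against 73.75 and 21.55 at E14.5, with an interaction of -3.64 ± 0.66 (limma, adjusted p = 0.00113). Afp (alpha-fetoprotein) and Trf (transferrin) had interactions of -3.74 ± 0.72 and -3.04 ± 0.54. At E12.5 the genotypes overlapped for all of these, and the fitted effects of 1.50, 1.54 and 1.37 there come with the prefix term. Without that term the interactions of Alb, Afp and Trf were nearly as large (-3.29, -3.37 and -2.77) but not called (limma, adjusted p = 0.136, 0.152 and 0.108). For the fourth gene, Apob (apolipoprotein B), the Apob interaction was -3.99 ± 0.70 (limma, adjusted p = 0.000853), and -3.75 without the prefix term, where it was still called (0.0306). Its Gata1s E14.5 values rest on 0 and 3 reads, so its size depends on the added 5 (-5.42 with 1 added and -2.60 with 20).

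Amino acid and stress genes were among those that gained on wild type. Of 29 genes of the integrated stress response and amino acid supply, 15 had a higher and 0 a lower interaction (edgeR, 12 and 0). The counts were 11 and 2 after quantile normalisation. Of the 29, 5 were amplified, 4 recovering and 3 newly changed, the last being near the share of newly changed genes among all tested (10.4%). Slc1a4, a transporter of serine and alanine, was at 884, 756 and 367 against 474 and 314 at E12.5, and at 147 and 113 against 535 and 663 at E14.5. It fell with day in wild type and rose in Gata1s (log2 changes of -2.16 and 0.62), for an interaction of 2.78 ± 0.33 (limma, adjusted p = 6.92e-05). Sesn2, a leucine sensor that restrains mTORC1, was at 372, 409 and 358 against 319 and 237, and then at 319 and 349 against 922 and 943. Its interaction was 1.89 ± 0.28 (limma, adjusted p = 0.000272), with a day change of -0.14 in wild type and 1.74 in Gata1s. By raw value Gata1s lay below wild type at E12.5 and above it at E14.5, and the E12.5 effect of Sesn2 was not called. Trib3, a pseudokinase of the same response, had effects of 0.28 and 3.06, and its interaction of 2.78 was not called by voom (2.93) or without the JC libraries of R3 (2.27). Eif2ak1, the heme-regulated kinase that starts this response in erythroblasts, was recovering with effects of -0.98 and 0.08, and was chosen after its values were seen.

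Several of the largest new changes lay outside these lists. Glrx, the cytosolic glutaredoxin, was at 949, 1654 and 2023 against 842 and 890 at E12.5, and at 114 and 128 against 3651 and 964 at E14.5. It fell with day in wild type by 3.58 on the log2 scale, the Gata1s E14.5 libraries differed widely from each other, and the interaction was 4.69 ± 0.57 (limma, adjusted p = 7.82e-05). Reln, which encodes the secreted protein reelin, was at 1033, 1356 and 1366 against 1952 and 1776, and then at 1115 and 1152 against 8677 and 10080. The Gata1s libraries lay above wild type at both days by raw value, and the E12.5 effect of 0.37 ± 0.43 was not called. Klf6, a Kruppel-like factor, was at 818, 948 and 1280 against 711 and 796, and then at 847 and 1308 against 3186 and 4469. For Glrx and Klf6 the Gata1s libraries lay below wild type at E12.5 by raw value, without a called effect. Gadd45a, a stress-induced inhibitor of cell cycle progression, was at 2194, 3013 and 4626 against 2872 and 3090, and then at 4728 and 9307 against 15260 and 17980. The interactions of Klf6 and Gadd45a were 2.31 ± 0.44 and 1.50 ± 0.28, and that of Gadd45a was 1.39 without the prefix term and no longer called (limma, adjusted p = 0.0661).

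Among 28 sterol and fatty acid genes, 4 had a higher and 4 a lower interaction, and the share called was that of all genes (28.6%). The lower count was 8 without wild type E14.5 replicate 2, 2 without Gata1s E12.5 replicate 2, and 1 without wild type E14.5 replicate 1, wild type E12.5 replicate 2 or 3, or Gata1s E14.5 replicate 2. The higher count was 2 without wild type E12.5 replicate 3, Gata1s E12.5 replicate 1 or Gata1s E14.5 replicate 2. Srebf2, the factor that drives sterol genes, was at 3939, 3837 and 4008 against 3426 and 3807, and then at 3606 and 3286 against 5413 and 5692. Its effects were -0.04 and 0.75, its interaction was 0.79 ± 0.13 (limma, adjusted p = 0.000608), and its call was lost after quantile normalisation (adjusted p = 0.10). Of 19 erythropoietin signalling genes, 7 had a higher and 0 a lower interaction by limma and by edgeR. Among these Cish, a feedback inhibitor of STAT5 signalling, had effects of 0.16 and 2.14, and Bcl2l1, the survival protein BCL-XL, of -2.33 and -0.23; both were chosen after their values were seen.

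DNA replication genes were lower in Gata1s at E14.5. Of 39 S phase genes, 0 had a higher and 16 a lower interaction, 12 of them newly changed, and 30 were called lower at E14.5 against 8 at E12.5. The median effect was -0.14 at E12.5 and -0.40 at E14.5. By edgeR 0 were higher and 18 lower, and after quantile normalisation 0 and 30. The number lower was 6 without wild type E14.5 replicate 1, 5 without Gata1s E14.5 replicate 2 and 10 without either Gata1s E12.5 library. Ccne1, the cyclin that starts S phase, was at 4495, 4338 and 4209 against 2479 and 2756 at E12.5, and at 4979 and 3839 against 1630 and 1333 at E14.5, with an interaction of -0.83 ± 0.17 (limma, adjusted p = 0.00197). Pcna, the sliding clamp, and Tk1, thymidine kinase, had interactions of -0.37 and -0.47 and were chosen after their values were seen. Of 38 G2 and M phase genes, 3 had a higher and 1 a lower interaction, and 0 and 6 after quantile normalisation. The higher count was 9 without wild type E14.5 replicate 2, 0 without replicate 1 of that group, and 1 without wild type E12.5 replicate 3, either Gata1s E12.5 library or Gata1s E14.5 replicate 2.

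Other newly lower genes included a lysosomal enzyme and a repair gene. Fuca2, an alpha-fucosidase, was at 1275, 1004 and 1001 against 1120 and 879, and then at 1294 and 1053 against 454 and 404, with an interaction of -1.31 ± 0.22. Mlh3, a mismatch repair protein, was at 163, 130 and 127 against 151 and 140, and then at 134 and 156 against 55.3 and 45.8. Lin28b, an RNA-binding protein of fetal haematopoiesis that restrains let-7, was at 1281, 1336 and 1513 against 1597 and 1700, and then at 1131 and 1213 against 955 and 878, with an interaction of -0.58 ± 0.09 (limma, adjusted p = 0.000456). Rps27l, a paralogue of a small-subunit ribosomal protein gene, had effects of 0.22 and -0.43. The genotypes were apart at E14.5 for all of these, with Gata1s below wild type. For Lin28b they were also apart at E12.5, with Gata1s above wild type, where the effect of 0.14 was not called.

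Of the 292 amplified genes, 175 were above wild type at E12.5 and farther above it at E14.5. Slc7a11, the cystine importer of system xc-, was at 48.9, 139 and 38.5 in wild type and 1029 and 649 in Gata1s at E12.5, and at 13.2 and 4.72 against 3961 and 5043 at E14.5. The wild type E14.5 values rest on 8 and 1 reads, so the interaction of 4.75 ± 0.59 (limma, adjusted p = 8.38e-05) depends on the added 5. Ndrg2, a stress-responsive gene of the NDRG family, was at 178, 140 and 131 against 678 and 752, and then at 41.4 and 33.1 against 2039 and 3206, with an interaction of 3.65 ± 0.30 (limma, adjusted p = 3.73e-06). Il4ra, the interleukin-4 receptor chain, was at 88.2, 134 and 134 against 250 and 353, and then at 39.7 and 80.3 against 1737 and 1183. In all of these the genotypes were apart at both days, and the wild type level fell with day while the Gata1s level rose.

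Most glycolysis and hypoxia genes were high in Gata1s at both days. Of 27, 17 were called higher and 4 lower at E12.5, and 19 higher and 2 lower at E14.5, while 9 had a higher and 2 a lower interaction, 7 were amplified and 8 persisting. After quantile normalisation 6 were higher and 2 lower, and the list's median interaction changed from 0.35 to -0.08. Slc2a3, the glucose transporter GLUT3, was at 842, 1068 and 1346 against 2870 and 2635 at E12.5, and at 657 and 586 against 7305 and 7872 at E14.5, with an interaction of 2.25 ± 0.19 (limma, adjusted p = 5.03e-06) and 1.43 after quantile normalisation. Bnip3, a hypoxia-induced mitophagy receptor, was at 684, 591 and 578 against 1328 and 1251, and then at 395 and 416 against 3326 and 3138, with an interaction of 1.90 ± 0.24. Aldoa, a glycolytic aldolase chosen after its values were seen, had effects of 1.47 and 2.73.

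Kdm6b, the demethylase of the polycomb mark H3K27me3, was amplified. It was at 208, 218 and 263 against 283 and 409 at E12.5, and at 149 and 128 against 1121 and 1272 at E14.5, for an interaction of 2.48 ± 0.25 (limma, adjusted p = 2.79e-05). Of 25 polycomb and demethylase genes, 3 had a higher and 7 a lower interaction (edgeR, 3 and 11). The lower count was 1 without wild type E14.5 replicate 1, 4 without wild type E12.5 replicate 3, and 3 without Gata1s E12.5 replicate 2 or Gata1s E14.5 replicate 2. Itga2b, the megakaryocyte integrin CD41, was at 233, 343 and 548 against 1713 and 1399, and then at 170 and 279 against 2323 and 3138. Its interaction of 1.53 ± 0.40 (limma, adjusted p = 0.0103) lost its call after quantile normalisation (0.88, adjusted p = 0.114), without wild type E14.5 replicate 1 (1.30, 0.0632) and without Gata1s E14.5 replicate 2 (1.32, 0.0541). Of the 16 megakaryocyte genes tested, of 36, 8 were called higher and 2 lower at E12.5, and 12 higher and 2 lower at E14.5. Over all genes tested, 15.2% were called higher at E12.5 and 18.6% at E14.5. In the interaction, 2 of the 16 were higher and 0 lower (edgeR, 1 and 0). Summed over the 36, the level was 9073 to 11740 in wild type and 9256 to 10580 in Gata1s at E12.5, and 21420 to 23110 and 14620 to 17490 at E14.5.

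Among genes amplified downwards, Peg3, a paternally expressed zinc finger gene, was at 563, 522 and 607 against 334 and 303 at E12.5, and at 571 and 604 against 107 and 59.3 at E14.5. Its interaction was -2.0 ± 0.36 (limma, adjusted p = 0.00106), and wild type barely moved with day (0.07). Ptgr1, a prostaglandin reductase, was at 223, 189 and 161 against 96.7 and 89.2, and then at 334 and 283 against 36.9 and 24.2. Rcbtb1, a protein with RCC1 repeats, was at 294, 279 and 206 against 120 and 126, and then at 329 and 283 against 33.2 and 45.8. Myh10, a non-muscle myosin heavy chain, had effects of -0.58 ± 0.08 and -1.22 ± 0.08. Gata1s was below every wild type library at both days for all of these.

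Persisting genes differed at both days in the same direction, with like medians. Of the 1044, 386 were higher and 658 lower in Gata1s at both days. The median effects were 0.63 and 0.68 for the former and -0.54 and -0.56 for the latter. The band of 1 log2 unit allowed for the interaction is wider than these medians, so an equal effect is not shown for each gene. Ctse, the aspartic protease cathepsin E, was at 11510, 6998 and 19580 against 300 and 268 at E12.5, and at 23660 and 36990 against 693 and 533 at E14.5. Its effects were -5.56 ± 0.27 and -5.76 ± 0.28, and the level rose with day in wild type (log2 1.29) and in Gata1s (1.09). Cast, the calpain inhibitor calpastatin, was at 2847, 3196 and 4064 against 739 and 635, and then at 3666 and 6233 against 896 and 787. Ptk2b, the focal adhesion family kinase PYK2, was at 212, 189 and 120 against 1374 and 1340, and then at 142 and 104 against 1283 and 1247. Vwce, a von Willebrand factor C domain protein, and Sptbn1, the non-erythroid beta spectrin, had effects of 2.95 and 2.66, and of 2.13 and 2.05. For each of these 5 genes the genotypes were apart at both days.

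Gata1 itself was newly changed. Its level was 7424, 8359 and 9068 in wild type and 7763 and 7643 in Gata1s at E12.5, and 9614 and 10800 against 14200 and 13740 at E14.5. The genotypes overlapped at E12.5 and were apart at E14.5, and the interaction was 0.56 ± 0.12 (limma, adjusted p = 0.00249). The call was lost after quantile normalisation, where the interaction was 0.14 (adjusted p = 0.227). A count over the gene does not separate the full-length from the short form. Gata2, the related factor of progenitors, was at 12.8, 10.4 and 11.3 against 289 and 211, and then at 11.6 and 14.2 against 384 and 447. Its effects of 3.96 and 4.58 were called at both days, but the interaction of 0.62 ± 0.52 was not (limma, adjusted p = 0.389; 95% interval -0.48 to 1.72). Kit, the stem cell factor receptor, was at 43.9 to 118 in the 9 libraries, and its interaction of -0.21 ± 0.34 was not called.

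The globin entries Beta-s, Hbb-y, Hba-x and Hbb-bh1 did not pass in the interaction. The adult beta entries Hbb-b2 and Hbb-b1 and the adult alpha entries Hba-a2 and Hba-a1 were too low to test (0 to 8.27). Neither of these alpha globins was therefore tested. How the authors' counting assigned reads to these entries is not given, so these values do not show that the genes were silent. Beta-s, the adult beta globin entry of the table, was at 1012000, 1545000 and 1613000 against 371700 and 440400 at E12.5, and at 3388000 and 4187000 against 3007000 and 2578000 at E14.5. Gata1s lay below wild type at both days, the E12.5 effect was -2.23 ± 0.39, and the interaction was 1.44 ± 0.54 (limma, adjusted p = 0.058). That interaction was 0.10 after quantile normalisation (limma, adjusted p = 0.894). It was called with R3 libraries only (1.37, 0.0282), with MS libraries only (1.41, 0.000695) and with Gata1s E14.5 R1/2 replicate 1 or either wild type E14.5 R1/2 library left out (1.40 to 1.47). Hbb-y was at 495500, 255500 and 117800 against 25390 and 8196, and then at 30360 and 1969 against 1840 and 3537, and its interaction of 2.29 ± 1.50 was not called. Hba-x, the embryonic alpha-like globin, and Hbb-bh1 had interactions of 2.17 ± 1.35 and 0.98 ± 0.85. With MS libraries only, those of Hbb-y (3.40) and Hba-x (2.63) were called (limma, adjusted p = 0.0266 and 0.0408), and that of Hba-x also with R3 libraries only (1.97, 0.0458). Hbb-bh2 was too low to test (9.93 to 62.1). Of the globin switching regulators, Bcl11a, a repressor of embryonic globins, was at 1737, 1828 and 1450 against 1236 and 1067, and then at 1115 and 878 against 472 and 331. Its interaction was -0.80 ± 0.18 (limma, adjusted p = 0.00463).

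**Figure D5:**
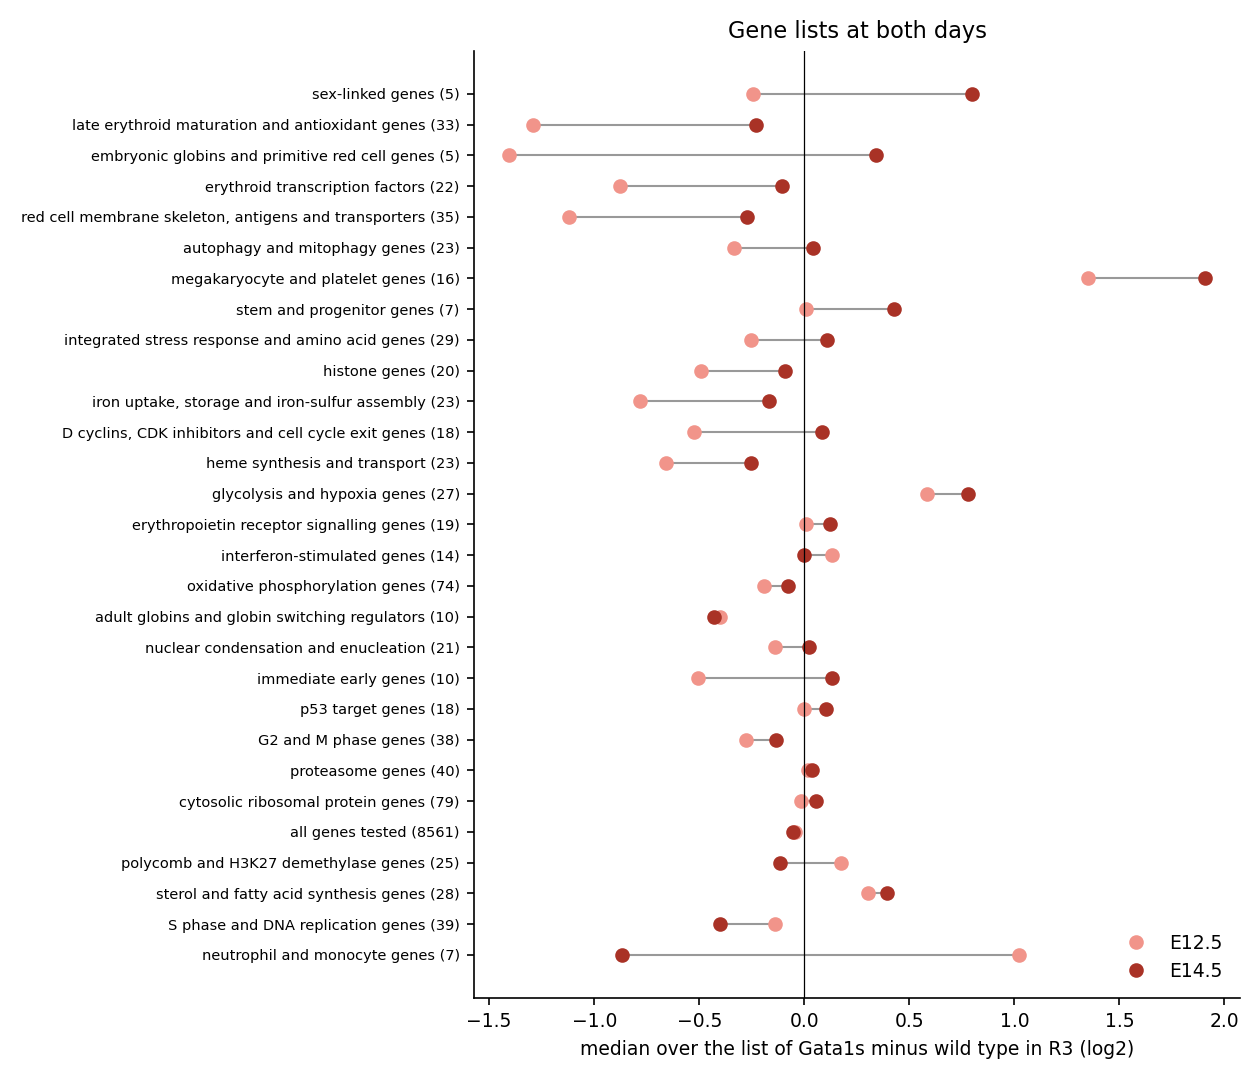
Median of Gata1s minus wild type (log2) at E12.5 (light) and E14.5 (dark) over the tested genes of each list with at least 5 of them, ordered by the median interaction, with the number of genes in brackets. The late maturation list moves from -1.29 to -0.23 and the S phase list from -0.14 to -0.40, while all genes tested stay at -0.04 and -0.06.

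The ribosomal protein and proteasome lists held few calls, and their split depended on scaling. The counts of further lists follow them, as higher and then lower. Over all genes tested, 17.8% were called higher and 10.8% lower. Of 79 ribosomal protein genes, 2 had a higher and 1 a lower interaction, but 0 and 40 after quantile normalisation, and of 40 proteasome genes 4 and 2, but 2 and 12. Interferon-stimulated genes counted 1 and 0 of 14, p53 targets 5 and 1 of 18, histone genes 4 and 1 of 20, immediate early genes 2 and 0 of 10, stem and progenitor genes 3 and 0 of 7, and nuclear condensation genes 8 and 2 of 21 (3 and 4 after quantile normalisation). D cyclins and cell cycle exit genes counted 7 and 2 of 18. Without wild type E14.5 replicate 2 the higher count was 7 for ribosomal and 8 for proteasome genes. That of nuclear condensation genes was 3 without wild type E14.5 replicate 1, 4 without wild type E12.5 replicate 3 or Gata1s E12.5 replicate 2, and 5 without Gata1s E12.5 replicate 1 or Gata1s E14.5 replicate 2. For histone genes it was 2 without wild type E14.5 replicate 1 or Gata1s E14.5 replicate 2, and for p53 targets it was 3 without either of these or Gata1s E12.5 replicate 1. Neutrophil genes counted 0 and 0 of 7 by limma and by edgeR, macrophage genes 0 and 1 of 2, mast cell genes 0 and 0 of 2, endothelial genes 0 and 1 of 1, and no lymphoid gene was high enough to test. Of the 5 sex-linked genes tested, 3 were higher (Ddx3y, Uty and Eif2s3y, at 1.42, 1.44 and 1.15) and Xist was lower (-1.99 ± 0.42), and the fifth, Kdm5d, was not called (0.87 ± 0.38). Without the JC libraries of R3 the interactions of Ddx3y, Uty and Eif2s3y were 1.16, 1.15 and 0.88 and not called, and without the prefix term those of Ddx3y and Eif2s3y were 1.30 and 1.04 and not called.

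Promoter letters were read for the genes tested, as a description. RefSeq promoters (GRCm38.p6) were found for 7007 of the 8561 genes, 6541 by symbol and 466 by an older symbol, and the 250 bases before the first listed start were searched on both strands. The GATA letters searched were AGATAA as the first form, TGATAA as another, AGATAG as the next and TGATAG as the last. At least 1 of these was present in 16.1% of all these promoters, in 15.7% of the recovering higher, 12.7% of the newly changed higher, 8.70% of the amplified higher and 16.3% of the persisting genes. By pattern, the highest shares were 26.9% of the reversing lower and 22.9% of the partly recovering higher genes. The lowest was 0 of 6 partly recovering lower genes. Among the membrane and skeleton genes, GATA letters were present in 11 of 26 (42.3%). They were present in only 2 of 25 late maturation genes and 3 of 25 stress response and amino acid genes. The amino acid response letters TGATGNAA, which ATF4 can bind, were present in 1.78% of all promoters and in 6 of 25 (24.0%) of the stress response and amino acid genes. The letters TGACNNNGC of the antioxidant response element, which small MAF proteins bind with NRF2, were present in 12.6% of all, in 7 of 25 (28.0%) of the stress response and amino acid genes and in 3 of 25 of the late maturation genes. No test was made of these shares, and a match is not a site of binding.

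The 4 sequences printed here are 1 example each of a recovering, a newly higher, a newly lower and an amplified gene whose window holds matches, written 5′ to 3′ on the strand of the gene, with the matched letters in capitals. Art4 (chr6:136857601-136857850, minus strand) holds 2 GATA matches, starting 212 and 104 bases before the start, and the sequence is shown because this blood group gene recovered. Sesn2 (chr4:132510457-132510706, minus strand) holds 1 antioxidant response match, 36 bases before the start. Lin28b (chr10:45470202-45470451, minus strand) holds 2 GATA matches, at 196 and 123 bases. Slc7a11 (chr3:50443614-50443863, minus strand) holds 2 amino acid response matches, at 66 and 47 bases.
Art4: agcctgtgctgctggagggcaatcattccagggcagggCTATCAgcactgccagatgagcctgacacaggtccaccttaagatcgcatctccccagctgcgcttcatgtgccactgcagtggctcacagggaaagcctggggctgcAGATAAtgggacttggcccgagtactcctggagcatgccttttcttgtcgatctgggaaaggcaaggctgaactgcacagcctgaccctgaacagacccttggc
Sesn2: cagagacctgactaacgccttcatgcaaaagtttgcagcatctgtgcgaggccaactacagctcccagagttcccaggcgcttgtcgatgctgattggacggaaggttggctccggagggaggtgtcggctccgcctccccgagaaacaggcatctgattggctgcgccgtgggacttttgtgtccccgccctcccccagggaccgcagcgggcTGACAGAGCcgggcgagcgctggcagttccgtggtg
Lin28b: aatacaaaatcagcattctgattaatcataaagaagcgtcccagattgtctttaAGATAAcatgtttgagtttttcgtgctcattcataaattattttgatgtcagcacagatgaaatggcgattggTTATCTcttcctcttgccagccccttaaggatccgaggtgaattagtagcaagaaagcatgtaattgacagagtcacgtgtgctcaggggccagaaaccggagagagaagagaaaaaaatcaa
Slc7a11: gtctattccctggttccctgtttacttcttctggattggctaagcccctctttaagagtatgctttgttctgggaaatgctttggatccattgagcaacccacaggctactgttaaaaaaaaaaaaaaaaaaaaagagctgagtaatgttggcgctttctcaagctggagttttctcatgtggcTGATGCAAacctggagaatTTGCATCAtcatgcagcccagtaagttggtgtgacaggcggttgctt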

How the data were processed

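Values are the normalised counts deposited by the authors, a signal of read counts per gene divided by a size factor per library. Per the submitters' processing notes, the series used Bowtie2, Trim Galore, DESeq2, HTSeq and TopHat2 with builds mm9 and mm10, whose roles are not given. The table holds 23420 entries, of which 27 are gene names turned into dates and were left out (0.199 to 0.359% of a library's values), and 1 column of no listed sample was not used. Whole reads could be recovered for 100% of values within 0.001.

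Tests used limma 3.58.1 in R 4.3.3 with a trend on log2(normalised count + 5) for the 8561 genes that averaged 50 or more across the 9 R3 libraries. All 20 RNA libraries entered as 8 group means plus a term for the JC or MS prefix (11 residual degrees of freedom, 15.9 with the prior), with Benjamini-Hochberg adjustment at 0.05. edgeR 4.0.16 (quasi-likelihood) and DESeq2 1.42.0 on the recovered reads were alternatives, with other pseudocounts, filters, scalings, covariates, library subsets and single libraries left out. Thinned reads, JC libraries of R3 left out and MS wild type libraries of R3 left out were chosen after seeing the data. The code was tested on simulated data.

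Named genes were those called by limma and edgeR in the same direction with a mean of at least 100 in a group, the 6 largest per pattern and direction, the 2 with the smallest adjusted p per list, and Gata1, Gata2, Kit, globins and sex-linked genes, of which the text gives a selection. Members and gene lists were chosen with earlier results of these data known. Promoters come from RefSeq.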

Additional observations from a re-analysis of the deposited data

Results flagged for a closer look

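The genotype effect differed between E12.5 and E14.5 for 1521 genes higher and 924 lower by the interaction test itself, and the interaction differed between R3 and R1/2 for 1012 genes. Genes whose effects were called in opposite directions at the days, with a called interaction, were Sertad1 (2.37), Sertad3 (2.32), Vwa5a (1.95), Junb (1.67), Pim1 (1.45), Ftl1 (1.33), Mxi1 (1.19), Lyl1 (1.05), Rfc4 (-0.86) and Oxct1 (-1.66). The hepatoblast genes Trf (-3.04), Alb (-3.64), Afp (-3.74) and Apob (-3.99) and the X inactivation transcript Xist (-1.99) did so too. The hepatoblast sum was 396.6 to 4246 in wild type E14.5 libraries, and the part of admixed cells and of sex in these values was not tested.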

How the results depend on the processing

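The 2445 interaction calls had the same sign under each setting that measured them, except that 2416 did after quantile normalisation and 2443 with thinned reads; a mean of at least 200 left 2068 of them to test. The median interaction over all genes was 0.02 as reported and -0.06 after quantile normalisation. The causes of the moves given next were not tested. After quantile normalisation 1002 genes were higher. Partly recovering genes numbered 63 with no filter and 42 without the prefix term. With R3 libraries only, 250 were partly recovering and 187 amplified. With R3 libraries only and no prefix term, 601 were higher, 120 lower, 2225 called at E12.5, 2266 at E14.5, 242 recovering, 27 partly recovering, 57 reversing, 285 newly changed, 89 amplified and 576 persisting. With MS libraries only, 320 were partly recovering and 316 reversing. With thinned reads, 994 were higher, 420 lower, 57 partly recovering, 87 reversing, 519 newly changed, 116 amplified and 619 persisting. Without the MS wild type libraries of R3, 56 were partly recovering, 1385 newly changed and 688 persisting.

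Same-numbered R3 libraries did not all deviate together (r from -0.154 to 0.558), but this cannot decide whether the numbers pair them. Outside wild type E12.5, the deviations of a group's R3 libraries from their mean mirror each other. Between the Gata1s days r was therefore 0.111 for same-numbered and -0.111 for differently numbered libraries. The libraries with r of -0.154 also differed in prefix. With the replicate block, 463 were lower, 1828 called at E12.5, 376 recovering, 42 partly recovering, 44 reversing, 119 amplified and 606 persisting.

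With 1 library left out in turn, higher calls ranged from 1006 (without wild type E14.5 replicate 1) to 1820 (without replicate 2 of that group), lower calls from 513 to 1429 (the same libraries), recovering genes from 459 to 1097 (the same), and newly changed genes from 578 (without Gata1s E14.5 replicate 2) to 1172. Lower calls were 615 without Gata1s E14.5 replicate 2, recovering genes 495 without wild type E12.5 replicate 3, and newly changed genes 587 without wild type E14.5 replicate 1. Reversing genes ranged from 106 (without wild type E12.5 replicate 3) to 320, partly recovering genes from 42 to 163, amplified genes from 150 (without Gata1s E12.5 replicate 1; 156 without replicate 2) to 320, persisting genes from 749 to 1199, E12.5 calls from 2610 to 3752 and E14.5 calls from 2792 to 3708. A group left with 1 library is assumed to vary like the others.

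The uncalled Kit interaction was 0.33 with MS libraries only and without the JC libraries of R3, and from -0.69 to 0.28 when 1 library was left out (0.21 without wild type E14.5 replicate 1); that of Hbb-bh1 was -0.094 with embryonic globins as a covariate. Among 3229 gene values under the settings, 28 lost and 10 gained a call. Depth limits genes such as Slc7a11, Gata2 and Cpne7, whose wild type values rest on few reads.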
